A study of Mus musculus with 36 samples.

Results

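Heat shock proteins and their co-chaperones were followed through injury of mouse skeletal muscle. The members are the protein-coding genes whose symbol begins with Hspa, Hspb, Hsp90, Hsph, Hspd, Hspe, Dnaja, Dnajb, Dnajc or Bag and a digit, with Hsf1 added and pseudogene names left out. The rule used names only, and it found 79 members among 55471 gene identifiers, of which 21897 are protein-coding. The 36 RNA libraries, held in 2 tables, came from satellite cells, which repair skeletal muscle, of C57BL/6 hindlimbs. In the first table, KO cells came from tamoxifen-treated Pax7-CreER;ROSA26YFP;Drp1fl/fl mice, with n = 3 libraries of uninjured muscle (QSC, quiescent satellite cells), n = 4 at 1 day after cardiotoxin injury (1 DPI) and n = 4 at 3 days (3 DPI). Control cells came from Pax7-CreER;ROSA26YFP mice, with n = 3 libraries of QSC, 4 at 1 DPI and 3 at 3 DPI. Both genotypes were 3 months old and carried the same Cre driver and reporter. In the second table, old wild-type mice of 24 months gave n = 3 libraries each of QSC, 1 DPI and 3 DPI, and young wild-type mice of 3 months gave n = 3 each of QSC and 1 DPI. Deletion rests on a Cre active in cells that express Pax7, and the first table's cells were sorted as YFP-positive, with a CD34-negative gate added at 3 DPI. How the wild-type cells of the second table were sorted is not stated, and neither is whether a library stands for 1 animal or for a pool.

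HSP70 and HSP90 proteins bind unfolded or newly made proteins and release them through cycles of ATP binding. J-domain proteins, the Dnaj genes here, deliver clients to HSP70 and switch on its ATPase, while HSP110 and BAG proteins exchange its nucleotide, and small HSPs hold unfolded clients without ATP. In stressed cells the transcription factor HSF1 induces a subset of these genes, and separate chaperone sets serve the endoplasmic reticulum (ER) and the mitochondria.

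Expression is given as TPM, a gene's share of all transcripts in a library scaled to a fixed total. TPM keep no depth, so the sequencing depth is unknown and no counting interval can be given. Per library, 12325 to 14969 genes were at 1 TPM or more in the first table, against 12958 to 14636 for the second. The sum of 10 satellite cell markers was 5793 to 6848 TPM in KO QSC and 6340 to 7781 TPM in control QSC. It was 3965 to 6692 TPM in old QSC and 5826 to 6973 TPM in young QSC. No marker was under 1 TPM in every library of any group. Dnm1l, the gene of Drp1, averaged 36.7 ± 5.84 TPM in KO QSC and 36.2 ± 4.64 TPM in control QSC (SD, n = 3 each), so the QSC libraries labelled KO held as much of the targeted gene as controls on average. TPM cover the whole gene and the deleted part is not given, so this checks the labels only in part. At 1 DPI it averaged 34.7 ± 5.92 TPM in KO cells and 48.7 ± 3.71 TPM in control cells (SD, n = 4 each; limma adjusted p = 0.699). At 3 DPI it was 28.3 ± 6.82 TPM in KO cells (SD, n = 4) and 65.4 ± 4.20 TPM in control cells (SD, n = 3), a log2 difference of -1.21 (limma adjusted p = 0.00115). The tables were fitted separately, and the second holds no value of 0, which unexpressed genes would give, so its levels are compared only within a gene. In bulk samples fewer cells of a type and less RNA per cell cannot be told apart. The p-values measure the spread between libraries, which may be partly technical.

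At 1 DPI the mitochondrial Hspd1 and Hspe1, Hspa14 and Dnajc2 of the ribosome-associated complex and the histone chaperone Dnajc9 were among the members that rose in every set. The ER chaperone Hspa5, the HSP70 Hspa2 and the exchange factor Bag5 were among those that fell in every set. Of the members, 72 passed the filter of at least 1 TPM in 3 libraries in the first table and 71 in the second, and 7 and 8 did not. Dnajb8, Dnajc22, Dnajc5b, Dnajc5g, Dnajc6 and Hspb9 passed in neither, Dnajb13 not in the first, and Hspa1l and Hspb3 not in the second, where Dnajb3 and Hspb7 passed only through 1 DPI libraries. In KO cells 22 of 72 tested members (30.6%) rose at 1 DPI over QSC, beside 21.6% of all genes, and 13 (18.1%) fell, beside 10.6%. In control cells 28 of 72 (38.9%) rose, beside 23.3% of all genes, and 13 (18.1%) fell, beside 12.6%. In old cells 26 of 71 (36.6%) rose, beside 24.8%, and 12 (16.9%) fell, beside 7.72%. In young cells 24 of 71 (33.8%) rose, beside 23.2%, and 11 (15.5%) fell, beside 8.79%. A gene was called at a limma Benjamini-Hochberg adjusted p of at most 0.05 over all genes of a table. These sets share no library. Of 70 members tested in both tables, 18 rose in every set, 7 fell in every set and 19 were called in none. The share of all genes called in every set was not counted, so these counts are not read as particular to the members. Hspa1b alone was called in opposite directions.

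**Figure D1:**
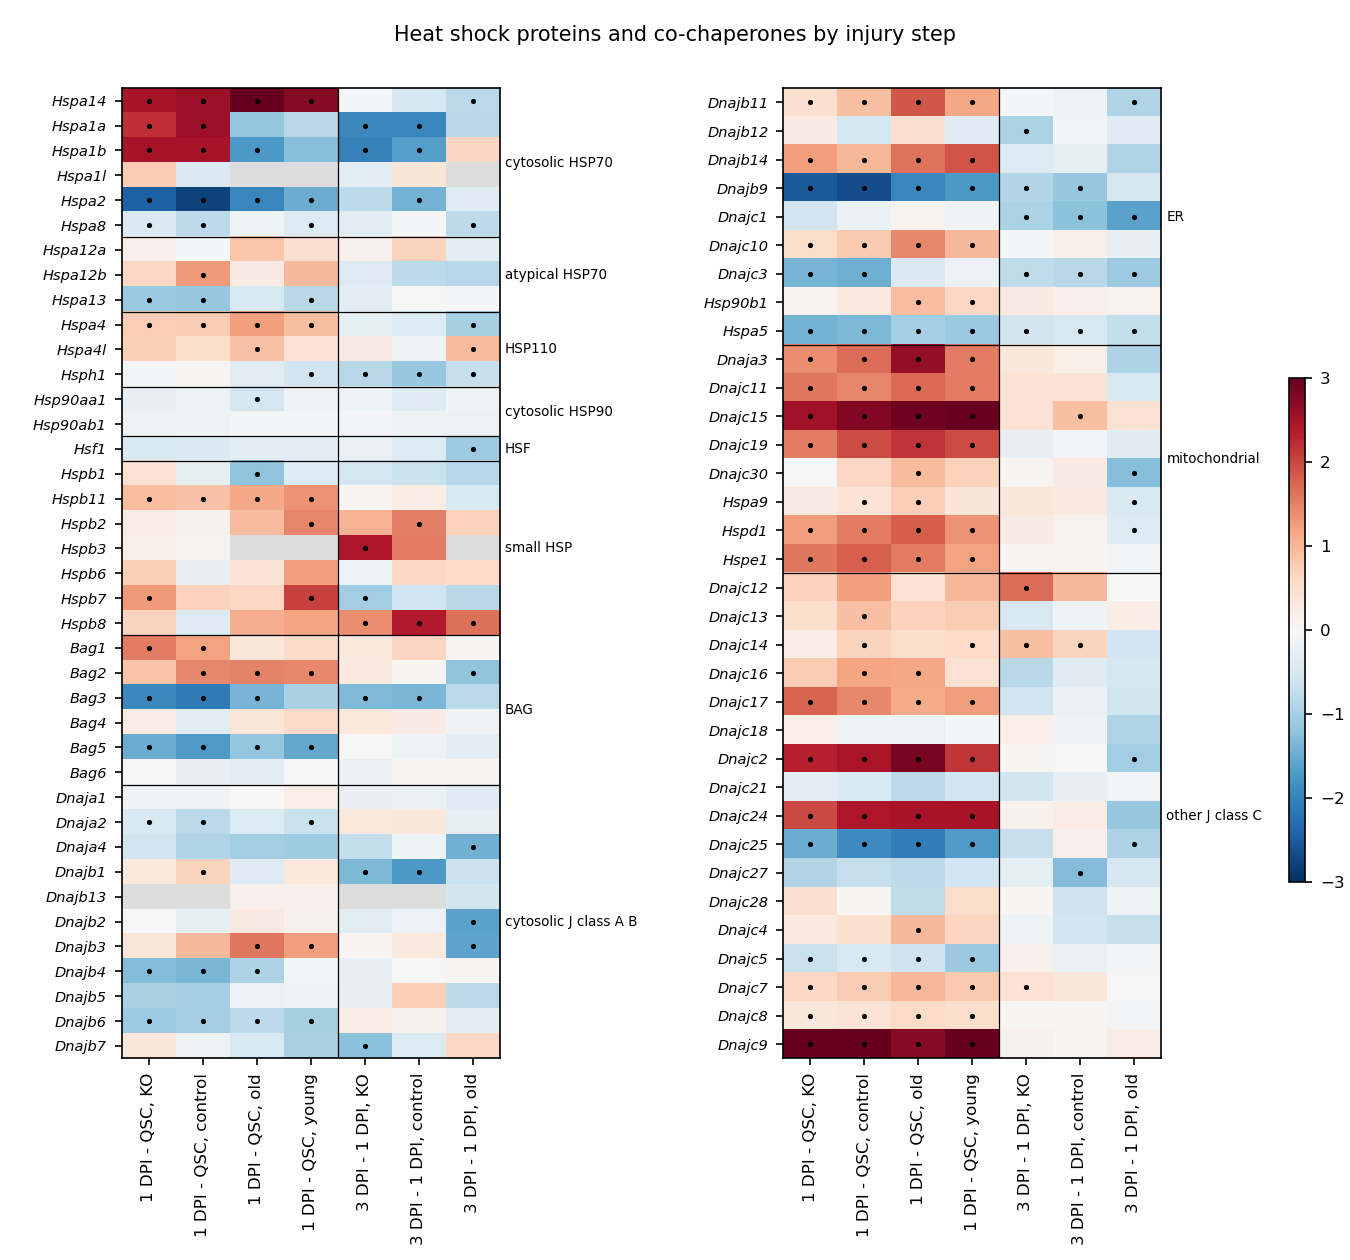
Log2 difference of every tested member (rows, grouped by role) at each injury step and set (columns), on a colour scale that ends at -3 and 3; dots mark calls and grey marks members not tested. Mitochondrial members are higher at 1 DPI than in QSC in nearly every column, and at that step Hspa1a and Hspa1b have opposite signs in the columns of the first and second tables.

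The split of the calls depends on the scaling. With library factors from median-of-ratios, the median log2 difference of all genes at 1 DPI moved to -0.05 in KO cells, against 0.16 in TPM, and to -0.07 in control cells, against 0.15. Members then counted 17 higher and 19 lower in KO cells, 21 and 23 in control cells, 25 and 15 in old cells and 25 and 11 in young cells. The shares of all genes called higher and lower under that scaling are not given. These counts, and later ones under it, are thus not set against all genes. Of the 18 members that rose in every set, 13 kept the call in every set under that scaling, as did all 7 that fell. Hsp90aa1, Hsp90ab1, Hsf1 and Dnaja1, which passed no test in KO or control cells in TPM, were lower in both under it. In the second table, which holds no 0, the factors were taken over all 55471 gene identifiers, unexpressed ones included. Dnajb8, for one, stood there at 0.0208 to 0.0253 TPM. Calls of old and young cells kept, gained or lost under this scaling, here and below, thus say little about their dependence on scaling.

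Markers of blood cells moved at the same step. Of 10 macrophage markers, 9 rose at 1 DPI in KO cells, 9 in control cells, 1 in old cells and 4 in young cells. Their summed level was 655 to 10152 TPM in KO 1 DPI libraries and 54.7 to 65.0 TPM in KO QSC, and 468 to 5396 TPM in control 1 DPI libraries and 70.0 to 126 TPM in control QSC. In old cells it was 218 to 786 TPM at 1 DPI and 110.1 to 517 TPM in QSC, and in young cells 211 to 900 TPM at 1 DPI and 35.5 to 93.9 TPM in QSC. Of 5 neutrophil markers, the summed level was 391 to 4955 TPM in KO 1 DPI libraries and 4.9 to 35.9 TPM in KO QSC, and 324 to 4351 TPM in control 1 DPI libraries and 4.6 to 15 TPM in control QSC. It was 117 to 446 TPM in old 1 DPI libraries and 21.8 to 4653 TPM in old QSC, the highest being replicate 1, and 80.8 to 360.0 TPM in young 1 DPI libraries and 1.1 to 14.6 TPM in young QSC. Of 5 erythroid markers 4 rose in KO and 3 in control cells, and none of 4 tested rose in old or young cells. No marker of the macrophage or neutrophil list was at 0 in every library of these KO and control groups. The second table holds no value of 0, so this cannot be asked of old and young cells. In young QSC 4 of 5 neutrophil markers were under 1 TPM in every library, against 0 in old QSC, 1 in KO QSC and 1 in control QSC. KO 1 DPI replicate 2 held the highest macrophage sum. Of the 10 satellite cell markers, 5 fell and none rose in KO cells, 5 fell and 2 rose in control cells, 3 fell and 1 rose in old cells, and 5 fell and 2 rose in young cells. Their summed level at 1 DPI was 1496 to 3026 TPM in KO cells, 1794 to 2626 TPM in control cells, 2245 to 3263 TPM in old cells and 2942 to 3631 TPM in young cells, below the QSC libraries of each set. Pax7 moved against this sum, with log2 differences of 0.78, 0.96, 1.42 and 1.93 in KO, control, old and young cells. All but that of KO cells were called. Those of Myod1 were -0.28, -0.38, -0.2 and -0.84, of which only that of young cells was called. Mean Myod1 before injury was 360 TPM for KO, 366 TPM for control, 399 TPM for old and 648 TPM for young libraries. Whether the QSC libraries were fully quiescent was not tested. Of 6 markers of fibro-adipogenic progenitors, 2 fell in KO, 2 in control, 1 in old and 1 in young cells. Their part in the changes of the chaperones was not tested.

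Most mitochondrial chaperones rose at 1 DPI. Hspd1 and Hspe1, the subunits of the mitochondrial chaperonin and its lid, stand next to each other on chromosome 1 and are read from a shared stretch in opposite directions. Hspd1 (ENSMUSG00000025980, GRCm38 chr1:55077835-55088243, minus strand) had 382, 332 and 436 TPM in KO QSC, 1052, 654, 978 and 1026 TPM at 1 DPI and 1029.8, 1020.5, 1095 and 1188 TPM at 3 DPI. In control cells it had 327, 435 and 319 TPM in QSC, 909, 1195, 1003 and 1054 TPM at 1 DPI and 1114, 1164 and 1057 TPM at 3 DPI. Every injured library of either genotype stood above every QSC library. The log2 difference of 1 DPI over QSC was 1.26 (SE 0.15, limma adjusted p = 3.12e-06) in KO cells and 1.54 (SE 0.15, limma adjusted p = 1.69e-07) in control cells. In old cells Hspd1 had 374, 318 and 308 TPM in QSC, 1129, 1183 and 1212 TPM at 1 DPI and 826, 941 and 893 TPM at 3 DPI, and in young cells 993, 1074 and 1111 TPM at 1 DPI and 405, 418 and 427 TPM in QSC. The groups did not overlap at either age, and the differences were 1.82 (SE 0.10, limma adjusted p = 1.01e-07) in old and 1.34 (SE 0.10, limma adjusted p = 6.2e-07) in young cells.

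Hspe1 (ENSMUSG00000073676, GRCm38 chr1:55088132-55091307, plus strand) followed the same course, with 256, 301 and 460.0 TPM in KO QSC, 1316, 664, 1017 and 1085 TPM at 1 DPI and 965, 1016, 1093 and 1012 TPM at 3 DPI. Control cells had 265, 413 and 255 TPM in QSC, 1012, 1208, 877 and 1128 TPM at 1 DPI and 1143, 1128 and 1005 TPM at 3 DPI. QSC libraries were again the lowest, with no overlap. The differences at 1 DPI were 1.59 (SE 0.21, limma adjusted p = 9.39e-06) in KO cells, 1.79 (SE 0.21, limma adjusted p = 1.58e-06) in control cells, 1.55 (SE 0.11, limma adjusted p = 4.58e-07) in old cells and 1.21 (SE 0.11, limma adjusted p = 3.33e-06) in young cells. The window from 250 bases before to 50 bases after the start, taken from RefSeq on GRCm38.p6, is shown for Hspe1 (chr1:55087898-55088197, plus strand) because it shares 285 bases with that of Hspd1, read on the other strand. Capitals mark an unbroken run of heat shock element units, where a unit is GAA or its reverse complement TTC, set in alternating order with 2 bases between (GAANNTTC or TTCNNGAA, searched on both strands; each is its own reverse complement). The run is 18 bases long and begins 89 bases before the start of Hspe1.
Hspe1: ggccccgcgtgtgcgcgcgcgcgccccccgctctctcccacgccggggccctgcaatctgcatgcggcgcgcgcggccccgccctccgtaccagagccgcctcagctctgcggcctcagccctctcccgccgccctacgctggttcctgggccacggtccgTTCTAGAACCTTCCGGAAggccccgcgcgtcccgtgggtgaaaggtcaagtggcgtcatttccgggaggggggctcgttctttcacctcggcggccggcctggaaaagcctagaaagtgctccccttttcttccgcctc
A run of 4 alternating units is held by the promoters of 8 of 27025 genes (0.03%), and Hspd1 and Hspe1 are 2 of them. Windows matched 63 of the 79 members. Runs of at least 3 units stood in 4 of these 63 (6.35%), namely Dnajb6, Hspd1, Hspe1 and Hsph1, beside 0.662% of all genes. Runs of at least 2 units stood in 17 of 63 (27.0%), beside 17.0% of all genes. These matches describe the letters of a window and are not binding sites.

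Among the other mitochondrial members, Dnajc15, a J-protein of the inner membrane import machinery, had 131, 86.3, 115 and 117 TPM in KO 1 DPI libraries, against 11.6, 20.5 and 27.1 TPM in KO QSC. In control cells it had 67.0, 119, 77.1 and 132 TPM at 1 DPI, against 12.1, 13.4 and 13.7 TPM in QSC. There was no overlap, and the log2 differences were 2.51 (SE 0.26, limma adjusted p = 3.49e-07) in KO, 2.77 (SE 0.26, limma adjusted p = 6.23e-08) in control, 2.93 (SE 0.38, limma adjusted p = 4.31e-05) in old and 2.98 (SE 0.38, limma adjusted p = 4.66e-05) in young cells. Dnajc19, a J-protein of the import motor, rose by 1.54, 1.95, 2.17 and 1.96 on the log2 scale in KO, control, old and young cells. Dnaja3, a J-protein partner of mitochondrial HSP70, rose by 1.41, 1.68, 2.63 and 1.53, and Dnajc11, which is linked to inner membrane organisation, by 1.59, 1.46, 1.71 and 1.54. All these passed the test.

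Hspa9, the mitochondrial HSP70 itself, moved less. It had 391.5, 268, 409 and 430.3 TPM in KO 1 DPI libraries, against 314, 275 and 326 TPM in KO QSC, with replicate 2 lowest at 1 DPI, a difference of 0.28 (SE 0.15, limma adjusted p = 0.187). Without replicate 2 at 1 DPI the difference passed (0.43, limma adjusted p = 0.0147). In control cells it had 356, 474, 306 and 413 TPM at 1 DPI, against 295, 298 and 273 TPM in QSC, with no overlap and a difference of 0.40 (SE 0.15, limma adjusted p = 0.0464). That call was lost in every fit without 1 library except that without control 1 DPI replicate 3, at adjusted p up to 0.149, and under median-of-ratios scaling (0.04, limma adjusted p = 0.823). In old cells the difference was 0.74 (SE 0.14, limma adjusted p = 0.00128) and in young cells 0.40 (SE 0.14, limma adjusted p = 0.0508). Of 8 mitochondrial members, 6 rose in KO cells, 7 in control cells, 8 in old cells and 6 in young cells, with medians of 1.47, 1.61, 1.76 and 1.44, beside 0.16, 0.15, 0.27 and 0.24 for all genes. Of all genes 21.6%, 23.3%, 24.8% and 23.2% rose at that step in TPM. Under median-of-ratios scaling the mitochondrial counts were 6, 6, 7 and 7.

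**Figure D2:**
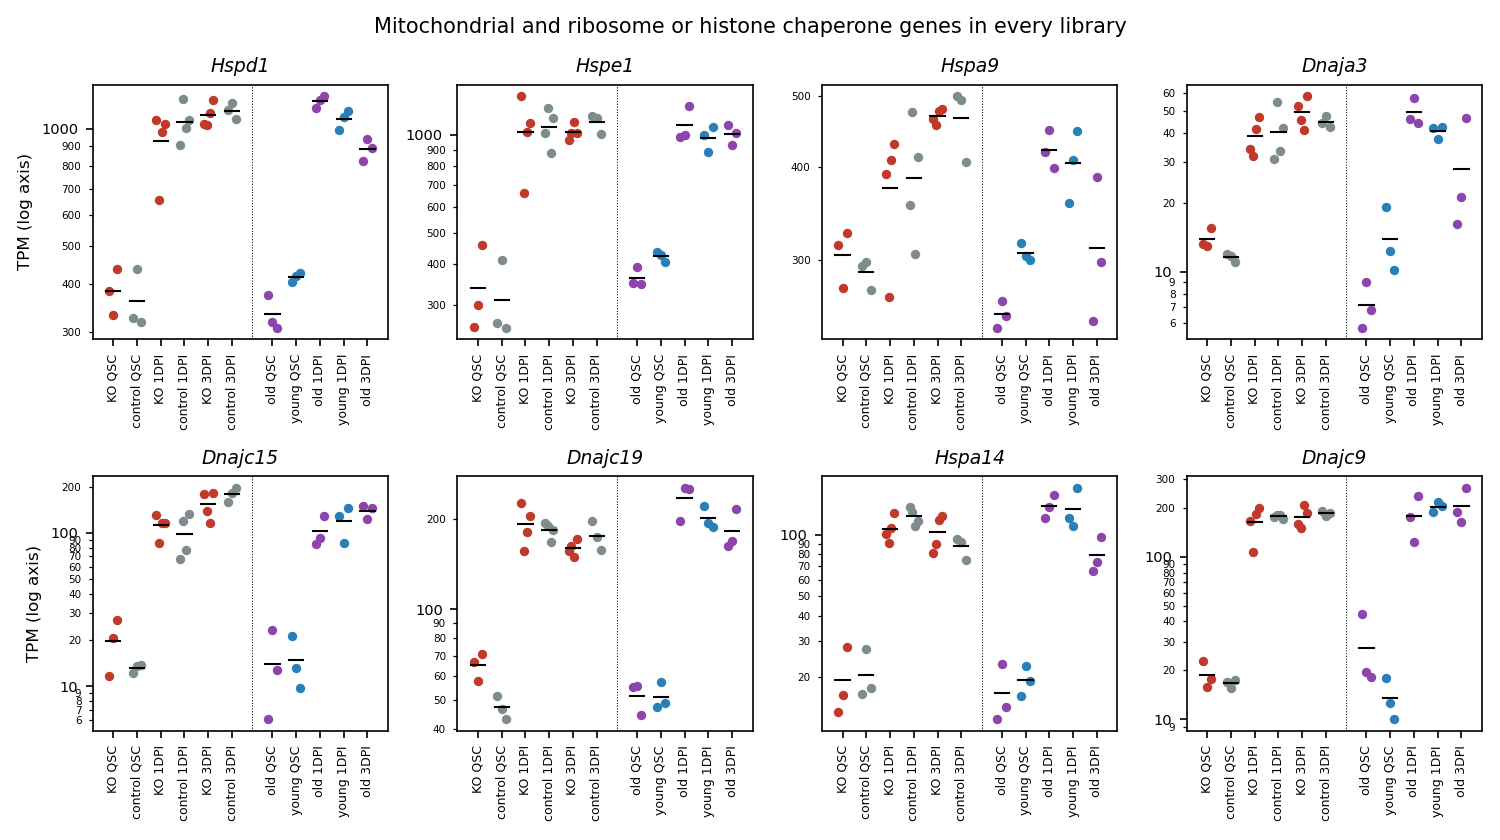
TPM of 6 mitochondrial members, Hspa14 and Dnajc9 in every library (points) of each group, with the group mean (bar) on log axes; a dotted line parts the tables. QSC libraries are lowest for Hspd1 and Hspe1 in each set, and for these genes the levels at 3 DPI overlap those at 1 DPI in KO and control cells.

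The stress-inducible HSP70 genes rose several-fold at 1 DPI in KO and control cells, while in old and young cells their means were lower at 1 DPI than in QSC. Hspa1a (ENSMUSG00000091971, GRCm38 chr17:34969190-34972156, minus strand) had 96.1, 192 and 106 TPM in KO QSC, 759, 433, 477 and 675 TPM at 1 DPI and 183, 122, 144 and 155 TPM at 3 DPI. In control cells it had 114, 84.4 and 139 TPM in QSC, 814, 645, 559 and 623 TPM at 1 DPI and 147, 179 and 179 TPM at 3 DPI. In both genotypes the 1 DPI libraries stood above all others, with log2 differences of 1 DPI over QSC of 2.18 (SE 0.24, limma adjusted p = 7.84e-07) in KO and 2.56 (SE 0.24, limma adjusted p = 6.69e-08) in control cells. In old cells the levels were 372, 227 and 58.7 TPM in QSC, 119, 124 and 28.9 TPM at 1 DPI and 39.7, 49.0 and 37.2 TPM at 3 DPI. In young cells they were 143, 152 and 111 TPM at 1 DPI and 387, 97.1 and 362 TPM in QSC. The QSC libraries were scattered at both ages and overlapped those of 1 DPI, and the differences were -1.17 (SE 0.67, limma adjusted p = 0.212) in old and -0.83 (SE 0.67, limma adjusted p = 0.393) in young cells. Without old QSC replicate 3 the old difference passed (-1.93, limma adjusted p = 0.0324).

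Its neighbour Hspa1b (ENSMUSG00000090877, GRCm38 chr17:34956436-34959238, minus strand) had 4.04, 8.82 and 5.63 TPM in KO QSC, 56.0, 31.5, 29.7 and 36.8 TPM at 1 DPI and 8.87, 11.6, 6.85 and 7.03 TPM at 3 DPI. Control cells had 3.92, 6.57 and 6.73 TPM in QSC, 47.7, 26.2, 34.9 and 38.1 TPM at 1 DPI and 11.3, 9.95 and 10.8 TPM at 3 DPI. The 1 DPI libraries were again the highest, and the differences over QSC were 2.47 (SE 0.28, limma adjusted p = 1.18e-06) in KO and 2.48 (SE 0.28, limma adjusted p = 7.39e-07) in control cells. Old cells had 39.6, 25.5 and 9.83 TPM in QSC, 5.56, 13.8 and 2.40 TPM at 1 DPI and 12.01, 8.09 and 9.72 TPM at 3 DPI, and young cells 6.14, 5.69 and 4.15 TPM at 1 DPI and 19.3, 6.25 and 23.0 TPM in QSC. The differences were -1.71 (SE 0.58, limma adjusted p = 0.0348) in old and -1.28 (SE 0.58, limma adjusted p = 0.109) in young cells. The old call was lost without any one of old QSC replicates 1 and 2 (-1.29, limma adjusted p = 0.135, and -1.60, limma adjusted p = 0.0915) and old 1 DPI replicates 1 and 3 (-1.67, limma adjusted p = 0.0822, and -1.20, limma adjusted p = 0.153). The young difference passed without young QSC replicate 5 (-1.82, limma adjusted p = 0.0349). The transcripts of Hspa1a and Hspa1b are 99.2% identical over 2201 bases, so the split of reads between them is uncertain. Summed, they differed by 2.21 in KO, 2.56 in control, -1.23 in old and -0.86 in young cells. The difference between the tables was not tested, since they were normalised separately, and sort, library kit and run may differ between them. The mice differ as well, since those of the first table carried a Cre driver and a reporter and those of the second were wild-type.

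The promoter windows of the pair are shown because they are so alike, with 296 of 300 bases identical, for Hspa1a at chr17:34972107-34972406, minus strand, and for Hspa1b at chr17:34959189-34959488, minus strand. Capitals mark the only pair of heat shock element units, which begins 104 bases before the start in each.
Hspa1a: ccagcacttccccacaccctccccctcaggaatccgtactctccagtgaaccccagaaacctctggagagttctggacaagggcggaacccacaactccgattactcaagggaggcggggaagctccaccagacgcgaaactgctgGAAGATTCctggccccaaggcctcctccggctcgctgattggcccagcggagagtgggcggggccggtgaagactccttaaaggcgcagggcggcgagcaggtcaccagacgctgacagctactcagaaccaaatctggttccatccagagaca
Hspa1b: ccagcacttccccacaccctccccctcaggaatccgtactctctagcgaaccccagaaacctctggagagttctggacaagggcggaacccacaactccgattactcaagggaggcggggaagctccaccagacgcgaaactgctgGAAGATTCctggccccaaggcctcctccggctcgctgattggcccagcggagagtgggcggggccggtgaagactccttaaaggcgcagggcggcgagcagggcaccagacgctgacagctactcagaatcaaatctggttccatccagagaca

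**Figure D3:**
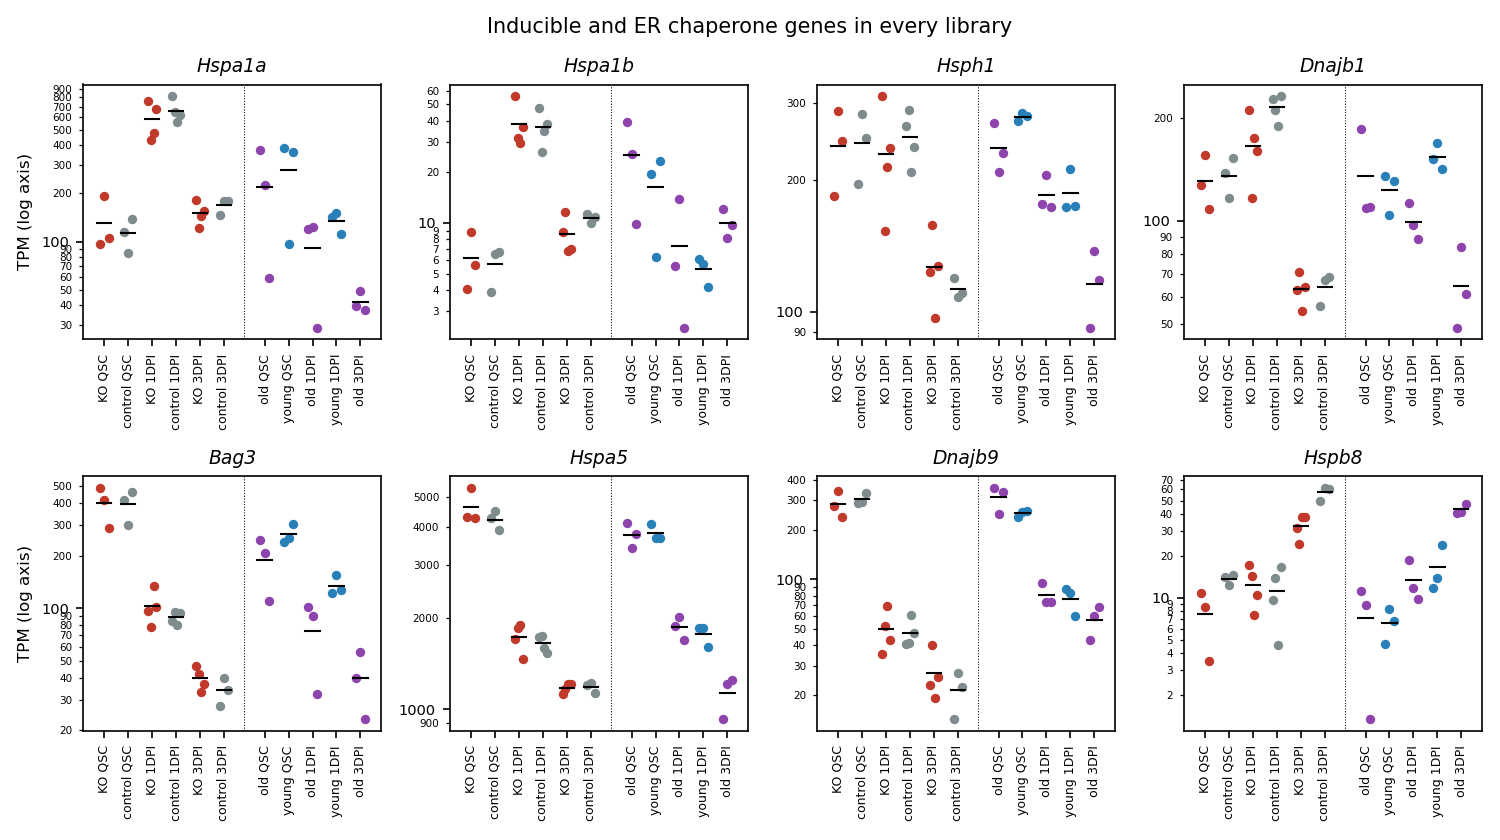
TPM of stress-inducible members, the ER members Hspa5 and Dnajb9, and Hspb8 in every library (points) of each group, with the group mean (bar) on log axes; a dotted line parts the tables. Hspa1a is highest at 1 DPI in KO and control cells, while in old and young cells its QSC libraries reach above those of 1 DPI.

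Of other members known as HSF1 targets, Hsph1 was not called at 1 DPI in KO or control cells, Bag3 fell in both, and Dnajb1 rose in control cells. Hsph1 (ENSMUSG00000029657, GRCm38 chr5:149614287-149636376, minus strand), an HSP110 that exchanges the nucleotide of HSP70, had 184, 287 and 246 TPM in KO QSC, 311, 153, 214 and 237 TPM at 1 DPI and 124, 158, 96.8 and 127 TPM at 3 DPI. Control cells had 196, 283 and 249 TPM in QSC, 265, 289, 208 and 238 TPM at 1 DPI and 119.6, 108 and 110.3 TPM at 3 DPI. QSC and 1 DPI libraries overlapped in both genotypes, and the differences between them were -0.08 (SE 0.21, limma adjusted p = 0.805) in KO and 0.05 (SE 0.21, limma adjusted p = 0.885) in control cells. In old cells it had 269.7, 209 and 230.2 TPM in QSC, 177, 205 and 174 TPM at 1 DPI and 92.0, 138 and 118 TPM at 3 DPI, and in young cells 174, 212 and 174 TPM at 1 DPI and 272, 284 and 279.9 TPM in QSC. The 1 DPI libraries lay below QSC at both ages, at differences of -0.35 (SE 0.16, limma adjusted p = 0.11) in old and -0.58 (SE 0.16, limma adjusted p = 0.011) in young cells, and the old one passed under median-of-ratios scaling (-0.46, limma adjusted p = 0.0309). A window of Hsph1 (chr5:149636266-149636565, minus strand) is shown because its run of 3 units, in capitals, lies after the start and not before it.
Hsph1: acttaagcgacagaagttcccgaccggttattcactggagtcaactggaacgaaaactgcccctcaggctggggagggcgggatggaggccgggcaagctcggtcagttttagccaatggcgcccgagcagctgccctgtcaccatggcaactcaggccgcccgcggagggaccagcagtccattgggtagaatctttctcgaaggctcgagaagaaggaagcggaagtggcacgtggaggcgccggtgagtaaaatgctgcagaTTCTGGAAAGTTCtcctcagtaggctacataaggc

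Bag3, a co-chaperone that steers HSP70 clients to autophagy and is known for this role in muscle, had 491, 418 and 287 TPM in KO QSC, 96.2, 78.3, 134 and 101 TPM at 1 DPI and 47.0, 42.2, 33.3 and 36.8 TPM at 3 DPI. Control cells had 419, 299 and 461 TPM in QSC, 85.0, 94.6, 80.7 and 94.0 TPM at 1 DPI and 27.7, 39.9 and 34.0 TPM at 3 DPI. No library of a later state reached the range of the state before it. The differences of 1 DPI over QSC were -1.94 (SE 0.20, limma adjusted p = 5.04e-07) in KO and -2.12 (SE 0.20, limma adjusted p = 1.06e-07) in control cells. They were -1.41 (SE 0.41, limma adjusted p = 0.0167) in old and -0.97 (SE 0.41, limma adjusted p = 0.0871) in young cells, where 1 DPI libraries held 102, 89.9 and 32.1 TPM (old) and 123, 154 and 128 TPM (young), and QSC libraries 246, 207 and 111 TPM (old) and 241, 253 and 302 TPM (young). The old call was lost without old QSC replicate 1 (-1.17, limma adjusted p = 0.0661), old QSC replicate 2 (-1.30, limma adjusted p = 0.0537) or old 1 DPI replicate 3 (-0.89, limma adjusted p = 0.0752).

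Dnajb1, the J-protein partner of inducible HSP70, had 128, 156 and 108 TPM in KO QSC, 210.3, 117, 174 and 161 TPM at 1 DPI and 62.9, 70.9, 54.4 and 64.0 TPM at 3 DPI. Control cells had 138, 116 and 153 TPM in QSC, 228, 211, 189 and 232 TPM at 1 DPI and 56.3, 67.3 and 68.6 TPM at 3 DPI. The 1 DPI libraries overlapped QSC in KO cells and were the highest in control cells, with differences of 0.33 (SE 0.17, limma adjusted p = 0.163) in KO and 0.67 (SE 0.17, limma adjusted p = 0.00464) in control cells. The control call was lost under median-of-ratios scaling (0.31, limma adjusted p = 0.123), and the KO difference passed without KO 1 DPI replicate 2 (0.48, limma adjusted p = 0.0221). In old and young cells the differences were -0.39 (SE 0.23, limma adjusted p = 0.218) and 0.32 (SE 0.23, limma adjusted p = 0.323).

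The cytosolic HSP90 genes were not called at 1 DPI in KO, control or young cells. Hsp90aa1, the inducible form, had 2034, 1383, 1836 and 2015 TPM in KO 1 DPI libraries, against 2236, 2095 and 2083 TPM in KO QSC, and 1961, 2359, 1817 and 1902 TPM in control 1 DPI libraries, against 2195, 2367 and 2052 TPM in control QSC. Hsp90ab1, the constitutive form, had 2774, 1833, 2813 and 2759.9 TPM in KO 1 DPI libraries, against 2862, 2804 and 2862 TPM in KO QSC, and 2589, 2759.6, 2428 and 2747 TPM in control 1 DPI libraries, against 2660.4, 3098 and 2902 TPM in control QSC. The low library at 1 DPI is KO replicate 2 for both genes. The differences were -0.25 (SE 0.14, limma adjusted p = 0.18) and -0.14 (SE 0.14, limma adjusted p = 0.474) for Hsp90aa1 and -0.18 (SE 0.12, limma adjusted p = 0.273) and -0.13 (SE 0.12, limma adjusted p = 0.424) for Hsp90ab1 in KO and control cells. Under median-of-ratios scaling both genes were called lower, with Hsp90aa1 at a lower value in KO (-0.58, limma adjusted p = 0.00091) and control cells (-0.50, limma adjusted p = 0.00281).

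In old cells Hsp90aa1 had 1928, 1902 and 2301 TPM at 1 DPI, against 3622, 2230.1 and 3201 TPM in QSC, a difference of -0.54 (SE 0.17, limma adjusted p = 0.0265). The call was lost without old QSC replicate 1 (-0.39, limma adjusted p = 0.109), old QSC replicate 3 (-0.48, limma adjusted p = 0.085), old 1 DPI replicate 1 (-0.50, limma adjusted p = 0.0799) or old 1 DPI replicate 2 (-0.49, limma adjusted p = 0.0852). Hsf1, the transcription factor of the response, had 76.1, 58.2, 87.2 and 72.1 TPM in KO 1 DPI libraries, against 82.5, 103 and 117 TPM in KO QSC, and 95.1, 87.3, 52.9 and 69.9 TPM in control 1 DPI libraries, against 113, 90.6 and 98.9 TPM in control QSC. The differences were -0.45 (SE 0.19, limma adjusted p = 0.0755) and -0.43 (SE 0.19, limma adjusted p = 0.0855), with means lower at 1 DPI. Dnaja1, a J-protein of the cytosol, had 322 to 464 TPM in KO 1 DPI libraries and 394 to 505 TPM in KO QSC, and its differences in the sets ran between -0.14 and 0.19, none of them called.

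Hspa8, the abundant constitutive HSP70, had 3513, 3844, 3472 and 4745 TPM in control 1 DPI libraries, against 6732, 7056 and 6158 TPM in control QSC, with no overlap and a difference of -0.78 (SE 0.15, limma adjusted p = 0.000292). In old and young cells it differed by -0.12 (SE 0.11, limma adjusted p = 0.465) and -0.40 (SE 0.11, limma adjusted p = 0.0145), and the young call was lost without young 1 DPI replicate 5 (-0.37, limma adjusted p = 0.0557). Its KO values are given with those of its pseudogene in the comparison of genotypes. Hspa2, an HSP70 known mainly from the testis, had 7.67, 4.17, 9.35 and 4.21 TPM in KO 1 DPI libraries, against 54.7, 36.5 and 26.4 TPM in KO QSC, and 6.52, 4.66, 4.44 and 7.55 TPM in control 1 DPI libraries, against 50.9, 35.9 and 49.7 TPM in control QSC. It fell in every set, with log2 differences of -2.46 (SE 0.38, limma adjusted p = 4.39e-05) in KO, -2.78 (SE 0.38, limma adjusted p = 7.61e-06) in control, -1.96 (SE 0.37, limma adjusted p = 0.00089) in old and -1.49 (SE 0.37, limma adjusted p = 0.0066) in young cells.

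Hspa14 and Dnajc2, the HSP70 and J-protein of the ribosome-associated complex that meets nascent chains, rose together with no overlap. Hspa14 had 101, 90.9, 109 and 128 TPM in KO 1 DPI libraries, against 13.4, 16.2 and 28.0 TPM in KO QSC, and 137, 129.9, 110.0 and 117 TPM in control 1 DPI libraries, against 16.4, 27.4 and 17.6 TPM in control QSC. Dnajc2 had 105, 90.2, 91.5 and 94.7 TPM in KO 1 DPI libraries, against 9.92, 14.7 and 38.9 TPM in KO QSC, and 109.7, 134, 72.1 and 92.1 TPM in control 1 DPI libraries, against 17.8, 18.9 and 15.5 TPM in control QSC. The differences of Hspa14 were 2.47 (SE 0.22, limma adjusted p = 8.39e-08) in KO, 2.57 (SE 0.22, limma adjusted p = 2.93e-08) in control, 3.03 (SE 0.25, limma adjusted p = 1.21e-06) in old and 2.73 (SE 0.25, limma adjusted p = 2.7e-06) in young cells. Those of Dnajc2 were 2.34, 2.45, 2.84 and 2.15, all called. Hspa4, an HSP110, rose by 0.73, 0.77, 1.23 and 0.90 in the same order and was called in each.

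Dnajc9, a J-protein that chaperones histones, rose the most of all members in KO, control and young cells. It had 166, 107, 184 and 199 TPM in KO 1 DPI libraries, against 22.9, 15.7 and 17.8 TPM in KO QSC, and 175, 182, 182 and 171 TPM in control 1 DPI libraries, against 17.1, 15.5 and 17.5 TPM in control QSC. Old cells had 175, 124 and 237 TPM at 1 DPI, against 44.5, 19.5 and 18.3 TPM in QSC, with replicate 1 highest in QSC, and young cells 189, 216 and 206 TPM at 1 DPI, against 17.9, 12.6 and 10.01 TPM in QSC. The groups did not overlap in any set, and the differences were 3.04 (SE 0.18, limma adjusted p = 4.43e-10) in KO, 3.33 (SE 0.18, limma adjusted p = 7.36e-11) in control, 2.73 (SE 0.33, limma adjusted p = 2.25e-05) in old and 3.85 (SE 0.33, limma adjusted p = 1.73e-06) in young cells. All 11 proliferation markers tested rose in each set at the same step, and their part in the rise of Dnajc9 was not tested. Dnajc24, a J-protein of diphthamide synthesis, rose by 1.98, 2.44, 2.46 and 2.47 in KO, control, old and young cells. Dnajc14 of the ER membrane was 1 of 17 tested J-proteins of class C not grouped with the ER or mitochondrial members. Of these, 6, 9, 8 and 7 rose, beside 21.6%, 23.3%, 24.8% and 23.2% of all genes. In the same order 2, 2, 2 and 2 fell, beside 10.6%, 12.6%, 7.72% and 8.79% of all genes. Nothing is read from the counts that fell.

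Of 6 BAG proteins, 1 rose and 2 fell in KO cells, 2 and 2 in control cells, 1 and 2 in old cells, and 1 and 1 in young cells. The shares of all genes were 21.6%, 23.3%, 24.8% and 23.2% higher and 10.6%, 12.6%, 7.72% and 8.79% lower. With so few members nothing is read from these counts. Of the cytosolic J-proteins of classes A and B, 0 of 10 rose and 3 fell in KO cells, 1 and 3 in control cells, and 1 of 11 and 2 of 11 in both old and young cells. The 1 that rose in old and young cells was Dnajb3, which passed the filter only through 1 DPI libraries and so had to differ. Among the members that fell in every set, Bag5, a nucleotide exchange factor of HSP70, fell, with log2 differences of -1.49, -1.71, -1.16 and -1.54 in KO, control, old and young cells. Dnajb6, a J-protein that suppresses aggregation and is linked to muscle disease in humans, fell, with log2 differences of -1.08, -1.05, -0.78 and -0.99. Dnajc25 fell, with log2 differences of -1.50, -1.90, -2.07 and -1.69, and Dnajc5, known from neurons as cysteine string protein, with -0.67, -0.47, -0.63 and -1.12. The smaller Dnajc5 calls depended on single libraries: in control cells the call was lost without QSC replicate 2 (-0.49, limma adjusted p = 0.0504), QSC replicate 3 (-0.41, limma adjusted p = 0.0945) or 1 DPI replicate 4 (-0.40, limma adjusted p = 0.069). In old cells it was lost without QSC replicate 2 (-0.50, limma adjusted p = 0.143), QSC replicate 3 (-0.64, limma adjusted p = 0.0754), 1 DPI replicate 2 (-0.69, limma adjusted p = 0.0636) or 1 DPI replicate 3 (-0.45, limma adjusted p = 0.17).

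Of 9 ER chaperones, 3 rose at 1 DPI and 3 fell in KO cells, 3 and 3 in control cells, 4 and 2 in old cells, and 4 and 2 in young cells. Of all genes 21.6%, 23.3%, 24.8% and 23.2% rose and 10.6%, 12.6%, 7.72% and 8.79% fell. Under median-of-ratios scaling 1 rose and 4 fell in KO cells, 3 and 4 in control cells, and 4 and 2 in both old and young cells. Hspa5 (ENSMUSG00000026864, GRCm38 chr2:34771970-34777547, plus strand), the ER HSP70 also called BiP, had 4286, 5375 and 4276 TPM in KO QSC, 1708, 1851, 1899.6 and 1466 TPM at 1 DPI and 1123, 1169, 1211 and 1212 TPM at 3 DPI. In control cells it had 4265, 4488 and 3899 TPM in QSC, 1727, 1749, 1591 and 1539 TPM at 1 DPI and 1207, 1226 and 1134 TPM at 3 DPI. In old cells it had 4118, 3406 and 3768 TPM in QSC, 1888, 2009 and 1697 TPM at 1 DPI and 929, 1217 and 1252 TPM at 3 DPI. Each state lay below the one before it with no overlap. The differences at 1 DPI were -1.42 (SE 0.10, limma adjusted p = 5.74e-09) in KO, -1.35 (SE 0.10, limma adjusted p = 5.6e-09) in control, -1.01 (SE 0.12, limma adjusted p = 2.33e-05) in old and -1.10 (SE 0.12, limma adjusted p = 1.46e-05) in young cells, and young cells had 1856, 1858 and 1601 TPM at 1 DPI, against 4075, 3675 and 3663 TPM in QSC.

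Dnajb9, an ER J-protein that holds the stress sensor IRE1 in check, fell further. It had 35.5, 52.2, 69.4 and 43.1 TPM in KO 1 DPI libraries, against 277, 344 and 239 TPM in KO QSC, and 40.7, 41.5, 61.2 and 47.8 TPM in control 1 DPI libraries, against 291, 295 and 332 TPM in control QSC. The groups were far apart, and the differences were -2.52 (SE 0.25, limma adjusted p = 3.14e-07) in KO, -2.67 (SE 0.25, limma adjusted p = 9.61e-08) in control, -1.95 (SE 0.21, limma adjusted p = 7.56e-06) in old and -1.71 (SE 0.21, limma adjusted p = 2.67e-05) in young cells. Dnajc3, which inhibits eIF2α kinases, fell, with log2 differences of -1.40 (SE 0.17, limma adjusted p = 3.12e-06) in KO and -1.46 (SE 0.17, limma adjusted p = 1.18e-06) in control cells, and differed by -0.44 (SE 0.23, limma adjusted p = 0.164) in old and -0.18 (SE 0.23, limma adjusted p = 0.598) in young cells.

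Other ER members went the opposite way. Dnajb14, at 2.16 to 13.4 TPM in the first table, rose by 1.26, 0.996, 1.62 and 1.89 in KO, control, old and young cells. It kept these calls under median-of-ratios scaling. Summed with a pseudogene that matches only part of it, the old and young calls were lost (limma adjusted p = 0.181 and 0.877). Dnajb11, a secreted and luminal partner of Hspa5, had 165, 159 and 173 TPM in old 1 DPI libraries, against 39.3, 47.8 and 48.1 TPM in old QSC, and 145, 153 and 155 TPM in young 1 DPI libraries, against 65.5, 77.8 and 60.7 TPM in young QSC. Its 1 DPI libraries lay above QSC at both ages, by 1.86 (SE 0.26, limma adjusted p = 7.51e-05) in old and 1.15 (SE 0.26, limma adjusted p = 0.00366) in young cells. It also rose by 0.48 (SE 0.16, limma adjusted p = 0.0241) in KO and 0.90 (SE 0.16, limma adjusted p = 0.000125) in control cells, the KO call being lost without KO QSC replicate 1 (0.30, limma adjusted p = 0.188) and under median-of-ratios scaling (0.15, limma adjusted p = 0.509). Dnajc10, an ER disulfide reductase, rose by 0.56, 0.79, 1.45 and 0.96 in KO, control, old and young cells, and in KO cells that call was lost without QSC replicate 1 (0.48, limma adjusted p = 0.066) and under the same scaling (0.24, limma adjusted p = 0.286). Hsp90b1, the ER HSP90, had 691, 764 and 633 TPM in old 1 DPI libraries, against 400.1, 372 and 323 TPM in old QSC, and 618, 656 and 574 TPM in young 1 DPI libraries, against 409, 412 and 380.1 TPM in young QSC. It rose by 0.93 (SE 0.12, limma adjusted p = 2.77e-05) in old and 0.62 (SE 0.12, limma adjusted p = 0.000952) in young cells, and differed by 0.07 (SE 0.17, limma adjusted p = 0.78) in KO and 0.30 (SE 0.17, limma adjusted p = 0.183) in control cells. In a list of 19 other ER folding and unfolded protein response genes, 5 rose and 5 fell at 1 DPI in KO cells, 7 and 6 in control cells, 7 and 3 in old cells, and 8 and 2 in young cells.

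Promoter windows of Hspa5 (chr2:34771840-34772139, plus strand), Hsp90b1 (chr10:86705395-86705694, minus strand) and Dnajc3 (chr14:118937682-118937981, plus strand) are shown because these are the members that hold an ER stress response element. Capitals mark it, CCAAT and CCACG with 9 bases between, on either strand, the first of them beginning 65, 212 and 105 bases before the start. The element was searched in all promoters and was found in those of 37 of 27025 genes (0.137%) and in 3 of 63 members with a window (4.76%). These 3 genes did not move alike, as the values above show.
Hspa5: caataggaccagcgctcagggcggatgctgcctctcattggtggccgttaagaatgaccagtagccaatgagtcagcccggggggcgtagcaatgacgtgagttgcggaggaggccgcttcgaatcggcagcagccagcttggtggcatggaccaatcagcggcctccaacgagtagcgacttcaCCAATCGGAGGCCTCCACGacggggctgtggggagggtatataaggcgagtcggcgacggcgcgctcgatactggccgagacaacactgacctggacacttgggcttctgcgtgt
Hsp90b1: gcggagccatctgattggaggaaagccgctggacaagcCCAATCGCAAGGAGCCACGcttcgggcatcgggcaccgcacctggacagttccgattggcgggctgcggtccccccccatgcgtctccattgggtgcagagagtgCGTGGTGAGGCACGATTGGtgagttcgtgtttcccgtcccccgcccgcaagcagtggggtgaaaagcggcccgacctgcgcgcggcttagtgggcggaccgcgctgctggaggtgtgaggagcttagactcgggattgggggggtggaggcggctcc
Dnajc3: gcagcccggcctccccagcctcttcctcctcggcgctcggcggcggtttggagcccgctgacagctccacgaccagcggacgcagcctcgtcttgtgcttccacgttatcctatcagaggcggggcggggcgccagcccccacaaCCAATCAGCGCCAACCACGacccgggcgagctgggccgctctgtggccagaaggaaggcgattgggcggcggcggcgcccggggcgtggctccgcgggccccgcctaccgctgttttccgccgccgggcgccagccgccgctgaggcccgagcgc

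Of the small HSPs, 2 of 7 rose in KO cells, 1 of 7 in control cells, 1 of 6 in old cells and 3 of 6 in young cells. Of all genes 21.6%, 23.3%, 24.8% and 23.2% rose. A fall was called for 1 small HSP, in old cells, where 7.72% of all genes fell. With so few members nothing is read from these counts. The young and KO counts include Hspb7. In the second table it passed the filter only through 1 DPI libraries and so had to differ. In the first table every QSC library held less than 1 TPM of it, so the filter favoured its KO call as well. Hspb1, which binds unfolded proteins and actin, had 426, 284 and 260.2 TPM in old 1 DPI libraries, against 1382, 729 and 386 TPM in old QSC, a difference of -1.21 (SE 0.36, limma adjusted p = 0.0197). Old QSC replicate 1, which held the high neutrophil sum, was the highest, and without it the call was lost (-0.75, limma adjusted p = 0.0829), as it was without 1 DPI replicate 2 (-1.13, limma adjusted p = 0.0621) or 1 DPI replicate 3 (-1.07, limma adjusted p = 0.0711). In KO, control and young cells Hspb1 differed by 0.46, -0.26 and -0.42, none called. Hspb11, a small HSP relative of the ciliary transport machinery, was called higher in every set, by 0.92, 0.88, 1.13 and 1.36 in KO, control, old and young cells, but lost the call under median-of-ratios scaling in KO (0.60, limma adjusted p = 0.12) and control cells (0.53, limma adjusted p = 0.163). Its KO call was also lost without QSC replicate 3 (0.62, limma adjusted p = 0.166) or 1 DPI replicate 3 (0.71, limma adjusted p = 0.0861), and its control call without QSC replicate 1 (0.70, limma adjusted p = 0.139), 1 DPI replicate 1 (0.87, limma adjusted p = 0.0538) or 1 DPI replicate 4 (0.67, limma adjusted p = 0.102).

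From 1 to 3 DPI fewer members moved, and most of those went down. In KO cells 5 of 72 (6.9%) rose, beside 6.8% of all genes, and 12 (16.7%) fell, beside 12.1%. In control cells 4 (5.6%) rose, beside 5.09%, and 11 (15.3%) fell, beside 8.25%. In old cells 2 of 71 (2.8%) rose, beside 5.74%, and 18 (25.4%) fell, beside 11.8%. The shares that rose lie near those of all genes in KO and control cells. The old counts depend on single libraries: 12 members were called without old 1 DPI replicate 1, 10 without old 1 DPI replicate 2 and 12 without old 3 DPI replicate 1, and median-of-ratios scaling left 2 higher and 10 lower. Dnajc1, Dnajc3, Hspa5 and Hsph1 fell in each of the 3 sets, and Hspb8 rose in each. Of the members that rose in KO cells, Hspb3 (2.42, SE 0.52, limma adjusted p = 0.00278) and Dnajc12 (1.68, SE 0.51, limma adjusted p = 0.0252) rose the most. Hspb3 was under 1 TPM in every KO library before 3 DPI, so the filter favoured that call. Dnajc7 rose in KO cells (0.44) and Hspa4l in old cells (0.96). Dnajb12 fell in KO cells (-0.96), and Dnajb2 (-1.6) and Bag2 (-1.21) fell in old cells.

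In KO and control cells Hspa1a and Hspa1b, which had risen at 1 DPI, came down again, and Dnajb1, Bag3 and Hsph1 fell as well. Hspa1a fell, with log2 differences of -1.93 (SE 0.22, limma adjusted p = 5.35e-06) in KO and -1.96 (SE 0.24, limma adjusted p = 1.31e-05) in control cells, to levels whose libraries overlapped those of QSC in KO cells and lay above them in control cells. Hspa1b fell, with log2 differences of -2.03 in KO and -1.66 in control cells. In old cells the differences were -0.84 for Hspa1a and 0.65 for Hspa1b, neither called. Dnajb1 fell, with log2 differences of -1.35 (SE 0.16, limma adjusted p = 7.41e-06) in KO and -1.73 (SE 0.17, limma adjusted p = 1.22e-06) in control cells, Bag3, with -1.33 (SE 0.19, limma adjusted p = 5.66e-05) and -1.37 (SE 0.20, limma adjusted p = 0.00012), and Hsph1, with -0.83 (SE 0.19, limma adjusted p = 0.0054) in KO, -1.14 (SE 0.21, limma adjusted p = 0.00103) in control and -0.69 (SE 0.16, limma adjusted p = 0.00842) in old cells. Of 20 immediate early genes, 17 fell at this step in KO cells, 17 in control cells and 15 in old cells. Macrophage markers, summed, were 124 to 435 TPM in KO and 153 to 443 TPM in control 3 DPI libraries, lower than at 1 DPI, while in old cells all 10 rose, to 7324 to 8485 TPM. Other lists moved at this step in old cells. Of 4 tested Schwann cell markers 3 rose, with a sum of 87.1 to 125.5 TPM at 3 DPI and 6.1 to 8.9 TPM at 1 DPI. Of 4 tested erythroid markers 1 rose, with a sum of 788 to 1210.5 TPM at 3 DPI and 3.6 to 102 TPM at 1 DPI. Of 3 tested lymphocyte markers 1 rose, with a sum of 30.7 to 64.1 TPM at 3 DPI and 7.4 to 15.2 TPM at 1 DPI. Of 10 satellite cell markers 6 fell in old cells and none rose, 5 fell and 3 rose in KO cells, and 4 fell and 1 rose in control cells. Their sum at 3 DPI was 1332 to 1577 TPM in KO, 1281 to 1458 TPM in control and 926 to 1188 TPM in old cells. In KO and control cells 4 and 4 of 5 neutrophil markers, 3 and 3 of 5 erythroid markers and 2 and 5 of 6 fibro-adipogenic progenitor markers fell. The part of these markers in the differences of the chaperones was not tested.

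Hspb8, the small HSP that works with Bag3, rose at 3 DPI. It had 10.9, 8.64 and 3.497 TPM in KO QSC, 17.1, 14.3, 7.57 and 10.4 TPM at 1 DPI and 31.7, 24.5, 38.0 and 37.8 TPM at 3 DPI. Control cells had 14.0, 12.3 and 14.5 TPM in QSC, 9.56, 13.9, 4.58 and 16.7 TPM at 1 DPI and 49.8, 61.9 and 60.7 TPM at 3 DPI, and old cells 11.1, 8.91 and 1.34 TPM in QSC, 18.7, 11.8 and 9.77 TPM at 1 DPI and 40.8, 41.01 and 47.5 TPM at 3 DPI. The 3 DPI libraries were the highest in each set with no overlap, and the steps were 1.39 (SE 0.34, limma adjusted p = 0.0065) in KO, 2.38 (SE 0.36, limma adjusted p = 0.00015) in control and 1.66 (SE 0.50, limma adjusted p = 0.0354) in old cells. The old call was lost in every fit without 1 library except that without old 1 DPI replicate 1, at adjusted p up to 0.103. Hspb2, a muscle small HSP, rose by 1.52 (SE 0.43, limma adjusted p = 0.0239) in control cells, a call lost without control 1 DPI replicate 3 (0.99, limma adjusted p = 0.053), 3 DPI replicate 1 (1.33, limma adjusted p = 0.108) or 3 DPI replicate 2 (1.55, limma adjusted p = 0.0675). At the same step 7 of 10 myofibre markers rose in each of the 3 sets, their sum being 951 to 1479 TPM in KO, 1119 to 1353 TPM in control and 1218 to 1892 TPM in old 3 DPI libraries, and 207 to 281 TPM in KO, 162 to 388 TPM in control and 70.5 to 172 TPM in old 1 DPI libraries. Their part in the rise of Hspb8 was not tested.

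Dnajc14, a J-protein of the ER membrane, rose at 3 DPI by 0.90 (SE 0.15, limma adjusted p = 0.000382) in KO and 0.66 (SE 0.17, limma adjusted p = 0.0113) in control cells, the control call being lost without 3 DPI replicate 2 (0.64, limma adjusted p = 0.0506) or replicate 3 (0.61, limma adjusted p = 0.0573). In old cells it differed by -0.57 (SE 0.20, limma adjusted p = 0.0607). Of 8 mitochondrial members, none was called at this step in KO cells, beside 6.8% of all genes higher and 12.1% lower. In control cells 1 rose, Dnajc15, at 0.90 (SE 0.26, limma adjusted p = 0.0236), beside 5.09% of all genes. In old cells 3 of 8 fell, beside 11.8% of all genes, namely Hspa9 (-0.46), Hspd1 (-0.41) and Dnajc30, known for binding ATP synthase (-1.29). Under median-of-ratios scaling the old calls of Hspa9 (-0.29, limma adjusted p = 0.147) and Hspd1 (-0.24, limma adjusted p = 0.167) were lost. Hspa9 also lost its call in every fit without 1 library except that without old 3 DPI replicate 2, at adjusted p up to 0.154, and Dnajc30 without old 1 DPI replicate 2 (-1.16, limma adjusted p = 0.0652) or old 3 DPI replicate 1 (-1.11, limma adjusted p = 0.058).

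Hsf1 had 15.7, 56.3 and 32.4 TPM in old 3 DPI libraries, against 75.6, 72.8 and 52.7 TPM in old 1 DPI libraries, with replicate 1 lowest at 3 DPI and an overlap between the groups. The difference was -1.08 (SE 0.34, limma adjusted p = 0.0433). It no longer passed without old 3 DPI replicate 1 (-0.62, limma adjusted p = 0.153), old 3 DPI replicate 3 (-1.12, limma adjusted p = 0.0827), old 1 DPI replicate 1 (-0.99, limma adjusted p = 0.131) or old 1 DPI replicate 2 (-1.02, limma adjusted p = 0.125), nor under median-of-ratios scaling (-0.92, limma adjusted p = 0.0723). In KO and control cells Hsf1 differed by -0.21 and -0.41 at this step, neither called.

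No member passed the test between genotypes. The limma counts were 0 of 72 in QSC, 0 at 1 DPI and 0 at 3 DPI, beside 0.213%, 0.278% and 0.283% of all genes. An unadjusted p under 0.05 was held by 5, 4 and 2 members, beside 870, 963 and 996 of all 18343 genes. The member with the smallest adjusted p in QSC and at 3 DPI was Hspa8 (ENSMUSG00000015656, GRCm38 chr9:40800984-40810087, plus strand), which shares its sequence with a processed pseudogene, Gm15459 (ENSMUSG00000100801, GRCm38 chr5:5781615-5783555, minus strand), alike in 99.7% of 1941 bases. Gm15459 had 4533, 3454 and 3282 TPM in KO QSC, against 4.5, 0.8 and 2.9 TPM in control QSC. It had 2452, 1031, 1247 and 1320 TPM in KO 1 DPI libraries and 1914, 1099.5, 2177 and 2297 TPM in KO 3 DPI libraries, against at most 7.4 TPM in any control library. Every KO library thus stood far above every control library, by 10.11, 9.30 and 9.60 on the log2 scale in QSC, at 1 DPI and at 3 DPI (limma adjusted p = 5.53e-09, 1.88e-09 and 4.8e-09). In the second table it reached at most 5.15 TPM.

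Hspa8 itself had 4849.9, 3659.8 and 3623 TPM in KO QSC, against 6732, 7056 and 6158 TPM in control QSC, 2698, 2516, 3515 and 3255 TPM in KO 1 DPI libraries, against 3513, 3844, 3472 and 4745 TPM in control ones, and 2020.1, 2973, 2339.7 and 2353 TPM in KO 3 DPI libraries, against 3946, 3608 and 3636 TPM in control ones. KO libraries were lower with no overlap in QSC and at 3 DPI. The differences were -0.73 (SE 0.16, limma adjusted p = 0.0758) in QSC, -0.38 (SE 0.14, limma adjusted p = 0.762) at 1 DPI and -0.64 (SE 0.15, limma adjusted p = 0.105) at 3 DPI. That of QSC passed without KO QSC replicate 1 (-0.87, limma adjusted p = 0.0228) and under median-of-ratios scaling (-0.76, limma adjusted p = 0.0311), and that of 3 DPI without KO 3 DPI replicate 2 (-0.74, limma adjusted p = 0.0361). Summed over gene and pseudogene, the differences were 0.22, 0.21 and 0.20, of the opposite sign, with a limma adjusted p of 1 in each. The pseudogene held 47.5% to 48.6% of that sum in KO QSC, 26.2% to 47.6% at 1 DPI and 27.0% to 49.4% at 3 DPI. Which locus the reads came from cannot be told apart from these values. The step from QSC to 1 DPI in KO cells was -0.43 (SE 0.15, limma adjusted p = 0.0299) for Hspa8 and -0.79 for the sum (limma adjusted p = 0.000142), beside -0.78 in control cells. The first of these calls was lost without KO QSC replicate 1 (-0.29, limma adjusted p = 0.191), KO 1 DPI replicate 1 (-0.39, limma adjusted p = 0.0775) or KO 1 DPI replicate 2 (-0.35, limma adjusted p = 0.0736).

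**Figure D4:**
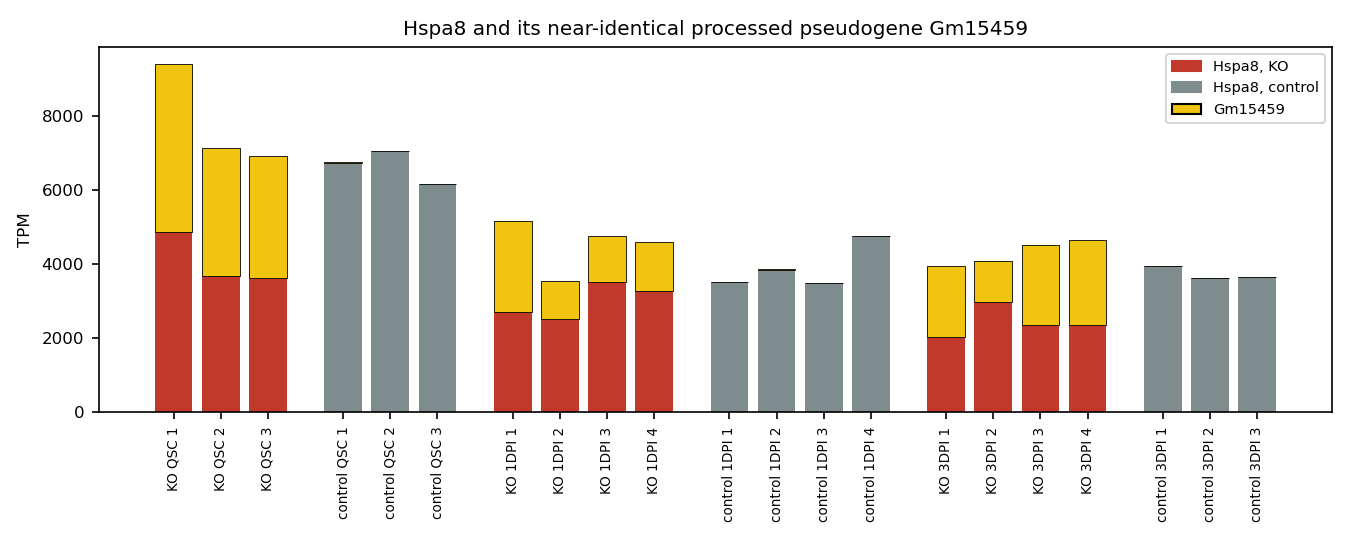
TPM of Hspa8 (lower part of each bar) and of its pseudogene Gm15459 (upper part) stacked for every library of the first table, with KO groups left of control groups. Gm15459 lies between 1031 and 4533 TPM in KO libraries and at 7.4 TPM or less in control libraries, and the sums overlap between genotypes.

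Hspb1 had 195, 316 and 244 TPM in KO QSC, against 440.3, 476 and 497 TPM in control QSC. All KO libraries were lower, a difference of -0.93 (SE 0.24, limma adjusted p = 0.251), which did not pass over all genes. At 1 and 3 DPI the groups overlapped, with differences of -0.20 and -0.01. Hspb8 was also lower in every KO library in QSC, a difference of -0.86 (SE 0.39, limma adjusted p = 0.987), and at 3 DPI, a difference of -0.80 (SE 0.36, limma adjusted p = 0.874). Dnajc19 had 66.9, 57.7 and 70.9 TPM in KO QSC, against 51.6, 46.6 and 43.0 TPM in control QSC, the KO libraries being higher, a difference of 0.46 (SE 0.14, limma adjusted p = 0.423). How many of all genes separate in this way between groups of 3 or 4 libraries was not counted. Nothing is read from such separation here or between ages. Hspd1 and Hspe1 differed by 0.10 and 0.11 in QSC, with 95% intervals of -0.22 to 0.42 and -0.33 to 0.56. The interaction of genotype with the step to 1 DPI called 0 of 72 members in limma, beside 0.0218% of all genes. That with the step to 3 DPI called 0, beside 0%. An unadjusted p under 0.05 was held by 2 and 0 members, beside 793 and 831 of all 18343 genes.

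Between ages no member passed either. The limma counts were 0 of 71 in QSC, beside 0.726% of all genes, and 0 of 71 at 1 DPI, beside 0.142%. An unadjusted p under 0.05 was held by 9 and 3 members, beside 2382 and 1200 of all 16949 genes. Hsp90aa1 had 3622, 2230.1 and 3201 TPM in old QSC, against 2202, 1995 and 1899 TPM in young QSC, higher in each old library, a difference of 0.54 (SE 0.17, limma adjusted p = 0.16). Without old QSC replicate 2 it passed (0.75, limma adjusted p = 0.0336). The highest Hsp90aa1 level was in old QSC replicate 1, which held the high neutrophil marker sum, whose part was not tested. Hspd1 had 374, 318 and 308 TPM in old QSC, against 405, 418 and 427 TPM in young QSC, lower in each old library, a difference of -0.32 (SE 0.10, limma adjusted p = 0.144). Dnaja3 was lower in each old QSC library as well, at 5.72, 9.06 and 6.81 TPM, against 19.2, 12.4 and 10.2 TPM in young QSC, a difference of -0.84 (SE 0.33, limma adjusted p = 0.269). Of 8 mitochondrial members, 1 had a difference above 0 in old QSC, and their median was -0.28, beside -0.04 for all genes tested.

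At 1 DPI Dnajb1 had 113, 97.2 and 88.4 TPM in old cells, against 152, 169 and 142 TPM in young cells, lower in each old library, a difference of -0.63 (SE 0.23, limma adjusted p = 0.5). Bag3 had 102, 89.9 and 32.1 TPM in old cells, against 123, 154 and 128 TPM in young cells, also with no overlap, a difference of -1.0 (SE 0.41, limma adjusted p = 0.599). The interaction of age with the step to 1 DPI called 0 of 71 members in limma, beside 0.0118% of all genes. An unadjusted p under 0.05 was held by 7 members, beside 1497 of all 16949 genes. Cd14, a macrophage marker, was higher in old QSC (2.36). The fibro-adipogenic progenitor markers Dcn and Col3a1 were higher (1.88) and lower (-2.75) in old QSC, and the proliferation markers Ccnb1 (-2.75) and Plk1 (-2.94) were lower in old 1 DPI libraries. Their part in the differences of the chaperones was not tested.

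**Figure D5:**
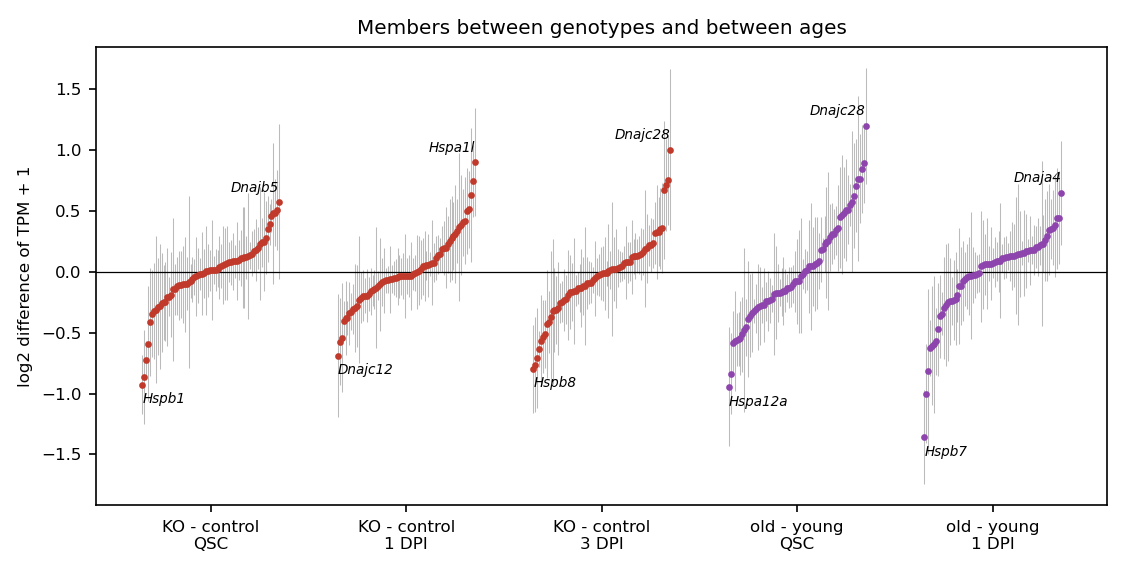
Log2 difference (points) with its standard error (lines) of every tested member between genotypes (KO over control) and between ages (old over young), sorted within each comparison, with the lowest and highest named. Most points lie near 0, and no difference passes the test over all genes.

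Folding genes outside the member list are given by list. The shares of all genes called at 1 DPI were 21.6%, 23.3%, 24.8% and 23.2% higher and 10.6%, 12.6%, 7.72% and 8.79% lower in KO, control, old and young cells. Of the 8 subunits of TRiC, the cytosolic chaperonin, 5 rose at 1 DPI in KO cells, 7 in control cells, 7 in old cells and 6 in young cells, and none fell. Of 18 cofactors of HSP90 and HSP70, 9, 9, 14 and 11 rose in the same order and 1 fell in each. Of 16 genes of mitochondrial import and proteolysis, 10, 9, 12 and 9 rose, and 0, 1, 0 and 0 fell. Of 6 prefoldin subunits, 2, 3, 4 and 2 rose, and 0, 1, 1 and 1 fell. Of 5 tested genes in a list of further heat shock factors and their partners, 0, 0, 1 and 0 rose and 1, 1, 1 and 0 fell. Of 10 genes of the integrated stress response, 3 rose in each set, and 0, 2, 0 and 0 fell. Between genotypes and between ages, Fgf21 of the last list was higher in KO cells at 3 DPI (2.11, limma adjusted p = 0.00788), and no other gene of these lists passed in any state.

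Hsph1 was used to look for genes of like course, by Pearson correlation of log2(TPM + 1). Over the 21 libraries of the first table, the nearest of the 9987 genes compared, which average 5 TPM or more, were Lrig1 (r = 0.916), Ptbp1 (0.909), Vgll3 (0.908), Pmp22 (0.902) and Bmp4 (0.893). The nearest member was Dnajb1 (0.879). Over the 15 libraries of the second table they were Eif4a1 (r = 0.97), Gpkow (0.96), Map2 (0.957), Rbm7 (0.957) and Ccnl2 (0.954) among 9814 genes. The libraries share their states, so these values describe the course over the states and carry no test.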

How the data were processed

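RNA of sorted satellite cells was sequenced as single-end reads. The values are TPM per gene that the authors deposited in 2 tables, of 21 and 15 libraries, and per the submitters' processing notes RSEM 1.3.1, cutadapt 1.7.1 and CASAVA 1.8.2 were used with the GRCm38 build. Which aligner was used is not given in the sources used, and the labels' protocols give a kit for low input beside a directional preparation.

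Ensembl identifiers were matched to symbols in the GENCODE annotation of GRCm38. Genes with at least 1 TPM in 3 libraries of a table were fitted in limma 3.58.1 (R 4.3.3, trend) on log2(TPM + 1), with 1 mean per group over all groups of the table, two-sided, and Benjamini-Hochberg adjustment over 18343 genes in the first and 16949 in the second table, at 0.05. A log2 difference on this scale understates changes of low genes. The fit was tested on simulated data first. No test combined the tables.

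Members given library by library were up to 5 called per direction of largest difference, where the higher group averaged 5 TPM or more, plus Hsf1, Hspa1a, Hspa1b, Hspa5, Hspa8, Hspa9, Hspb1, Hspd1, Hspe1, Hsph1, Hsp90aa1, Hsp90ab1, Hsp90b1, Dnaja1, Dnajb1 and Bag3. Some are given by their differences only, by name only or at some of the steps only. Pseudogenes of at least 95% identity were found with BLAST 2.17.0. Members and gene lists were chosen with earlier results of these data known.

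Alternatives were another pseudocount (0.1), no filter, median-of-ratios scaling, a fit of the compared groups alone, copies summed, a replicate block and leaving out each library. The scaling used genes above 0 in every library of a table, which in the second table are all genes.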

Additional observations from a re-analysis of the deposited data

Results flagged for a closer look

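In 120 groups of 4 libraries over 40 named members, 5 had a library far from the others, with a gap over the range above the critical value of Dixon's test. Chance gives about 1 in 20 groups. Hsp90ab1 was at 1833 TPM in KO 1 DPI replicate 2, against 2760 to 2813 TPM in the other libraries of that group (0.946), and Dnaja1 at 322 TPM, against 445 to 464 TPM (0.866). That library also held the highest macrophage marker sum, whose part in these values was not tested. Hspa2 was at 1.8 TPM in KO 3 DPI replicate 2, against 3.5 to 3.7 TPM (0.912). Hspb3 was at 0.6 TPM in KO 1 DPI replicate 1, against 0 in the others (1.0), and at 1.5 TPM in control 1 DPI replicate 2, against 0 to 0.2 TPM (0.88).

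Some members moved one way in every library of one set and the opposite way in every library of another, and none of these differences between sets was tested. At 1 DPI over QSC, Hspa1b was at 2.47 in KO, 2.48 in control and -1.28 in young cells on the log2 scale. From 1 to 3 DPI, Dnajc14 was at 0.90 in KO, 0.66 in control and -0.57 in old cells, and Hspa9 at 0.35 in KO and -0.46 in old cells.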

How the results depend on the processing

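Counts of called members stayed within 1.5 times their value under the alternatives other than the replicate block, with these exceptions. In QSC, KO against control, 1 member was called under median-of-ratios scaling, against 0, and 0 to 1 when a library was left out. At 3 DPI that range was also 0 to 1. Between old and young QSC, 6 members were called without the filter on low values, against 0, and 0 to 1 when a library was left out. From 1 to 3 DPI in old cells, 20 members were called, against 12 under median-of-ratios scaling, 11 with only the compared groups fitted and 10 to 17 when a library was left out. Among differences called with or without the alternative, 2 turned direction. Dnajc8 at 1 DPI in KO cells was at 0.00 under median-of-ratios scaling, and Dnajb14 at 1 DPI in young cells was at -0.60 when summed with a pseudogene that matches only part of it. The cause was not tested. Uncalled differences turned as well when copies were summed, among them Hspa8 in KO against control cells, at 0.22 in QSC, 0.21 at 1 DPI and 0.20 at 3 DPI, against -0.73, -0.38 and -0.64, and Dnajb14 in KO against control cells at 1 DPI, at -0.43, against 0.33.

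With the replicate number as a replicate block, 11 members were called at 1 DPI in KO cells, 29 in control cells, 32 in old cells and 16 in young cells, and 3, 0 and 2 from 1 to 3 DPI in KO, control and old cells. In the main fit the counts were 35, 41, 38 and 35 at 1 DPI and 17, 15 and 20 from 1 to 3 DPI. All but those of control and old cells at 1 DPI thus moved by over 1.5 times. The block fit held only the compared groups, and only libraries whose number occurs in both. At the step to 1 DPI it left out replicate 4 of KO and control cells, and young cells kept only replicates 5 and 6. The block and the smaller number of libraries cannot be told apart in these counts. Deviations of same-numbered libraries from their group means had correlations of -0.212 to 0.192 (median 0.004) over 48 pairs of the first table. Over 11 pairs of the second they were -0.027 to 0.092 (median 0.042). Differently numbered libraries had a median of -0.001 in each table, over 135 and 79 pairs. With 3 or 4 libraries in a group these values cannot decide whether the numbers pair the libraries. The block was not run between ages or for the interaction with age.

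On simulated data the fit called 27% of genes changed by 1 on the log2 scale and 74% of those changed by 2 between genotypes in QSC, so smaller differences can be missed at this number of libraries. Depth is unknown.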
